A study of Mus musculus with 15 samples.

Results

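The club cell secretory genes are 8 genes whose products mark, or are released by, the secretory cells of the mouse airway, and all 8 were listed among the 10222 gene symbols of the expression table. They were taken by symbol (Scgb1a1, Scgb3a1, Scgb3a2, Cyp2f2, Cbr2, Sec14l3, Bpifa1 and Reg3g), and the RPKM values (read counts scaled to transcript length in kilobases and to the mapped reads of the library) of the transcripts of each symbol were summed. RNA was sequenced from 5 populations of cells sorted directly from C57BL/6 IL33-citrine reporter mice, with 3 libraries of each. The populations were Epcam+ epithelial cells from lung, IL33+ multipotent stromal cells (MSC) from lung (lung Il33+ MSC), Il33-citrine+ and Il33-citrine- mesenteric MSC from white adipose tissue (Il33+ and Il33- WAT-MSC) and CD31+ endothelial cells from white adipose tissue (WAT endothelial cells). In the gates of the study, epithelial and endothelial cells were CD45-, and stromal cells were CD45-, EpCAM- and CD31- and expressed PDGFRα and CD34. No treatment and no age is given in the labels, the groups share the reporter allele, and whether libraries of a population came from separate mice or pools is not stated, so p-values measure the spread between these libraries.

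Club cells are dome-shaped secretory cells of the conducting airways. They release secretoglobins and antimicrobial proteins into the airway lining fluid, detoxify inhaled compounds with cytochrome enzymes and reductases, and can renew themselves and give rise to ciliated cells after injury. Scgb1a1, the club cell secretory protein, is their classical marker.

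Libraries held 42711843 to 60773158 alignments. They were sequenced in 2 lanes, which in the labels coincide with 2 codes that open the library names. What these codes stand for is not stated. Lane 1 held replicate 1 of the epithelial cells and lung MSC and replicates 1 and 2 of each WAT population, and lane 2 held the other 7 libraries, so in the WAT populations lane 2 is replicate 3 alone. Libraries of 1 population correlated at 0.868 or more, except the endothelial libraries, where the lowest correlation was 0.773. The sorted epithelial libraries expressed all 6 general epithelial markers. Epcam was at 31.4 ± 7.38 RPKM and Cdh1 at 102 ± 14.6 RPKM (SD, n = 3). These libraries also held summed leukocyte and macrophage markers at 717 to 1379 RPKM. Most of this sum was Lyz2, at 658.02 to 1301.32 RPKM. The next highest gene of that list was Chil3, at 41.02 to 48.08 RPKM. Which cells the Lyz2 transcripts came from was not tested. In bulk RNA, fewer cells of a type and less RNA per cell cannot be told apart.

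The secretoglobins, small secreted proteins of the airway lining, included the most abundant transcript of the epithelial libraries. Scgb1a1 was at 160613, 208003 and 179632 RPKM in epithelial replicates 1, 2 and 3, a mean of 182749 ± 23848 (SD, n = 3). It ranked 1 among all genes there and accounted for 95.8 to 96.4% of the summed RPKM of the 8 genes. Of the summed RPKM of all listed genes in an epithelial library, Scgb1a1 made up 57.7 to 62.9%. With annotated transcript lengths, its RPKM corresponds to about 7.65 to 9.90% of the alignments of such a library. These shares are not alike, since RPKM is scaled to transcript length and the summed RPKM covers only the listed genes. Scgb3a2, a secretoglobin of the bronchial epithelium, was at 497.9, 842.6 and 703.8 RPKM (681 ± 173, SD, n = 3), rank 13. Scgb3a1, a secretoglobin with highest known levels in the upper airway, was at 330.1, 842.7 and 376.9 RPKM (517 ± 283, SD, n = 3), rank 21. The 3 secretoglobins were highest in replicate 2, and Scgb3a1 had the widest spread.

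The genes of xenobiotic and lipid handling were also near the top of the epithelial libraries. Cbr2, a carbonyl reductase of lung that is also described in adipocytes, was at 2520, 3271 and 3578 RPKM (3123 ± 544, SD, n = 3), rank 3. Cyp2f2, the monooxygenase that activates naphthalene in club cells, was at 1546, 2471 and 1923 RPKM (1980 ± 465, SD, n = 3), rank 4. Sec14l3, a lipid-binding protein of the SEC14 family, was at 572.8, 610.4 and 683.9 RPKM (622 ± 56.5, SD, n = 3), rank 14. Cbr2 and Sec14l3 differed from the other 6 genes in being highest in replicate 3, and Sec14l3 varied least of the 8.

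The genes of airway defence were Bpifa1 and Reg3g. Bpifa1, a secreted protein of the airway surface that limits bacterial growth, was at 398.8, 913.9 and 388.8 RPKM (567 ± 300.3, SD, n = 3), rank 17. Reg3g, a secreted antibacterial lectin, was at 106.05, 169.27 and 103.83 RPKM (126 ± 37.2, SD, n = 3), rank 82. For both genes replicate 2 stood above the other two epithelial libraries, which lay close together.

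**Figure D1:**
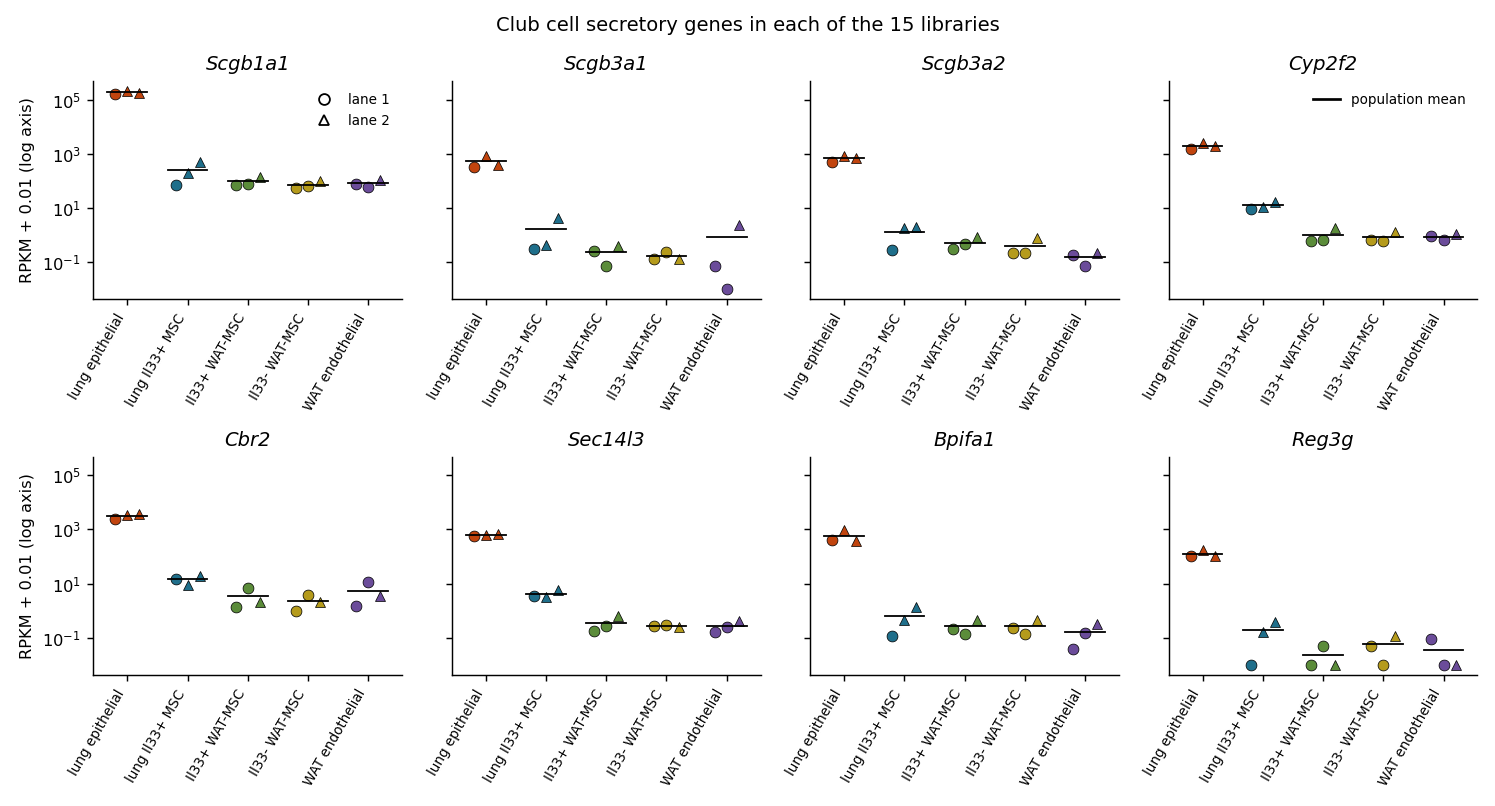
RPKM + 0.01 on a log axis for each of the 8 genes in the 15 libraries, with circles for lane 1, triangles for lane 2 and a horizontal line for the mean of each population. The 3 epithelial libraries sit far above the other 12 for every gene, from 103.83 RPKM (lowest Reg3g library) to 208003 RPKM (highest Scgb1a1 library).

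To show the regulatory sequence near these genes, the 250 bases before the annotated start were taken from RefSeq (GRCm38.p6), where 6 of the 8 genes matched. The 4 shown are the promoters of the genes that varied most between the epithelial libraries, Scgb3a1 and Bpifa1, of the antibacterial gene Reg3g, and of Cyp2f2 for contrast. Capitals mark matches on either strand to 4 short motifs: CTCAAG (bound by NKX2-1), TNTTTAC (bound by FOXA factors), TTGCNNAA (bound by C/EBP factors) and TATAAA (the TATA box). The 4 motifs do not overlap one another in these promoters. All are written 5′ to 3′ on the strand of the gene.
Scgb3a1, chr11:49663345-49663594, plus strand: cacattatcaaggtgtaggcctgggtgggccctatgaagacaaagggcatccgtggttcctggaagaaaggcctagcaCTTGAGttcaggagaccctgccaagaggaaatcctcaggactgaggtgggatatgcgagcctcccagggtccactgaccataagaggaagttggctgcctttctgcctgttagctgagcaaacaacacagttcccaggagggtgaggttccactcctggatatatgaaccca
Bpifa1, chr2:154142630-154142879, plus strand: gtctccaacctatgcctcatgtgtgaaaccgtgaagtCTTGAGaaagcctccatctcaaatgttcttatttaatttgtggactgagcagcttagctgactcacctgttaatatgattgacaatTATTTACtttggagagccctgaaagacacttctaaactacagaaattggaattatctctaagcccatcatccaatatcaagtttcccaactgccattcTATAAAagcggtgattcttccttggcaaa
Reg3g, chr6:78468875-78469124, minus strand: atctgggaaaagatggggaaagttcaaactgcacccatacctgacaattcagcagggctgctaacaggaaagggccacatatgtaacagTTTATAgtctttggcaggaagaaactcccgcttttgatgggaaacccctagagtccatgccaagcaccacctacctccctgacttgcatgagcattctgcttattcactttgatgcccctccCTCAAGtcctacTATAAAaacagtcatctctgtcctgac
Cyp2f2, chr7:27119705-27119954, plus strand: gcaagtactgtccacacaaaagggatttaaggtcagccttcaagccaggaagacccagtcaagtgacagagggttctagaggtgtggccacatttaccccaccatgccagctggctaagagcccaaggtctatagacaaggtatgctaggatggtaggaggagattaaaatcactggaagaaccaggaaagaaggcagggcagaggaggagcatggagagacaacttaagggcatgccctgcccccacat

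CTCAAG or its complement was found in 3 of the 6 promoters, at -172 to -167 in Scgb3a1, at -213 to -208 in Bpifa1 and at -39 to -34 in Reg3g, counting back from the annotated start. Of all 32536 promoters of the same length, 13.3% held it. TATAAA lay at -29 to -24 in Bpifa1 and at -27 to -22 in Reg3g, where its complement was also present at -161 to -156, and 12.3% of all promoters held it. TNTTTAC was found in Bpifa1 alone, at -127 to -121, against 10.9% of all promoters, and TTGCNNAA in none of the 6, against 9.57%. The promoters of Cyp2f2, Cbr2 and Sec14l3 held no match to these letters. The annotated start of Scgb3a1 in RefSeq was not within a GENCODE transcript, so its positions depend on the annotation. Such matches describe the sequence and show no binding.

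In the genome (GRCm38.p6) the 8 protein-coding genes were spread over 6 chromosomes. Scgb3a1 (chr11:49663595-49665118), Cbr2 (chr11:120729485-120732025) and Sec14l3 (chr11:4064853-4078990) lie far apart on chromosome 11. Scgb1a1 is at chr19:9083642-9087956, Scgb3a2 at chr18:43764301-43767399, Cyp2f2 at chr7:27119955-27133660, Bpifa1 at chr2:154142880-154149217 and Reg3g at chr6:78466269-78468874. A pair of transcripts was listed for each of Scgb3a1 and Scgb3a2 and 1 for each of the other genes. For Scgb3a1, transcript NM_054037 carried nearly all of the signal in epithelial cells (509.5 RPKM against 7.10 RPKM for NM_170727). For Scgb3a2, NM_001289643 made up 9.0% of the gene's RPKM there.

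The 8 genes did not vary together among the epithelial libraries. Replicate 2 held 2.38 times the mean of replicates 1 and 3 for Scgb3a1, 2.32 times for Bpifa1 and 1.61 times for Reg3g. The ratio was 1.42 for Cyp2f2, 1.40 for Scgb3a2 and 1.22 for Scgb1a1, and it was 1.07 for Cbr2 and 0.971 for Sec14l3. Among all 2087 genes with a mean of at least 10 RPKM in epithelial cells, the median ratio was 1.01, and 5% lay below 0.604 and 5% above 1.57. Scgb3a1, Bpifa1 and Reg3g thus lay above that upper bound, and the other 5 genes within the bounds.

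Over 24 club and airway secretory genes that are not among the 8, the ratio ran from 0.846 to 3.59 with a median of 1.30, inside the bounds for all genes. It was above 1 for 21 of the 24 and above 1.57 for 9, and the highest, named after its value was seen, was Bpifb1, a relative of Bpifa1. Markers of some other cells were also higher in replicate 2, with a median of 1.47 over 5 endothelial genes (1.14 to 3.02) and 1.18 over 6 leukocyte and macrophage genes (1.08 to 1.35), and the ratio of the goblet cell gene Agr2 was 1.75. The median was 0.774 over 12 alveolar type 2 genes, 0.922 over 9 ciliated cell genes, 0.828 over 6 alveolar type 1 genes, 0.827 over 6 general epithelial genes and 0.647 over 7 stromal genes. The part of other cells in the spread of Scgb3a1, Bpifa1 and Reg3g was not tested. These are ratios of single libraries, without a test. Replicates 2 and 3 were both sequenced in lane 2.

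**Figure D2:**
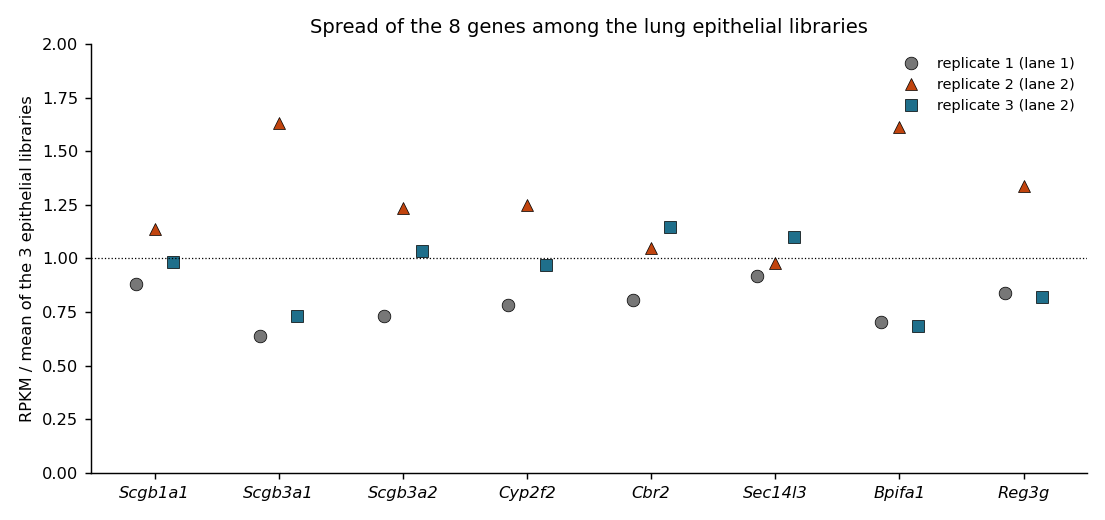
RPKM of each gene in the 3 lung epithelial libraries divided by their mean, with replicates 1, 2 and 3 as circles, triangles and squares. Replicate 2 stands highest for 6 of the 8 genes, most for Scgb3a1 and Bpifa1, while Cbr2 and Sec14l3 are highest in replicate 3.

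Whether the 8 genes were particular to epithelial cells was asked by comparing the epithelial cells with each other population, with limma on log2(RPKM + 1) and Benjamini-Hochberg adjustment over all genes tested. All 8 genes were higher in epithelial cells in each of the 4 comparisons at a limma adjusted p under 0.05. Of all genes tested, 18.5% were higher in epithelial cells against lung Il33+ MSC, 18% against Il33+ WAT-MSC, 18.6% against Il33- WAT-MSC and 12.8% against WAT endothelial cells. The 4 comparisons share the epithelial libraries, so their values stand side by side and are not independent. Some of the 8 genes reached the filter of 1 RPKM in 3 libraries through the epithelial libraries alone: 1 gene (Reg3g) against lung MSC, 5 against each of Il33+ and Il33- WAT-MSC (Scgb3a1, Scgb3a2, Sec14l3, Bpifa1 and Reg3g) and 4 against endothelial cells (the same without Scgb3a1). Such genes had to differ, so the count of 8 is given without weight. The epithelial values of each gene lay above every value of the other 12 libraries, as did those of 12.5% of all 10222 genes.

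The median log2 fold change of the 8 genes was 7.76 against lung MSC, 8.83 against Il33+ WAT-MSC, 8.93 against Il33- WAT-MSC and 9.06 against endothelial cells. Over all genes tested the medians were -0.13, -0.17, -0.17 and -0.08. By this fit Scgb1a1 had the largest fold change of all genes in each comparison, with log2 values of 9.87 (SE 0.60, limma adjusted p = 2.25e-06), 10.95 (SE 0.28, limma adjusted p = 8.59e-08), 11.33 (SE 0.31, limma adjusted p = 8.15e-08) and 11.16 (SE 0.35, limma adjusted p = 1.92e-06) in the same order. That rank depended on the processing. Under quantile normalization Scgb1a1 was at 8.02, 8.86, 9.25 and 9.20 and ranked 5, 7, 4 and 3, with Bpifa1 (8.94) first against lung MSC and Cyp2f2 (10.08, 10.22 and 9.78) first against the WAT populations. With a pseudocount of 0.1 it ranked 2 against lung MSC, after Bpifa1, and 2 against endothelial cells, after Scgb3a2. As fitted with a pseudocount of 1, the next largest among the 8 was Bpifa1 against lung MSC, at 8.39 (SE 0.39, limma adjusted p = 7.91e-07). Against the WAT populations it was Cyp2f2, at 9.96, 10.08 and 10.04.

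Fold changes were lower over lung MSC than over each WAT population for all 8 genes, among them the enzymes and Sec14l3. Cyp2f2 differed from lung MSC by 7.24 on the log2 scale (SE 0.28, limma adjusted p = 7.01e-07), Cbr2 by 7.73 (SE 0.30, limma adjusted p = 7.01e-07) and Sec14l3 by 6.94 (SE 0.23, limma adjusted p = 7.01e-07). Against Il33+ WAT-MSC the same genes differed by 9.96, 9.67 and 8.87. For Reg3g the 4 log2 values lay between 6.73 and 6.94, for Bpifa1 between 8.39 and 8.83, for Scgb3a1 between 7.79 and 8.68 and for Scgb3a2 between 8.26 and 9.19. The added 1 holds these values down for genes near 0 outside the epithelium, above all Reg3g.

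**Figure D3:**
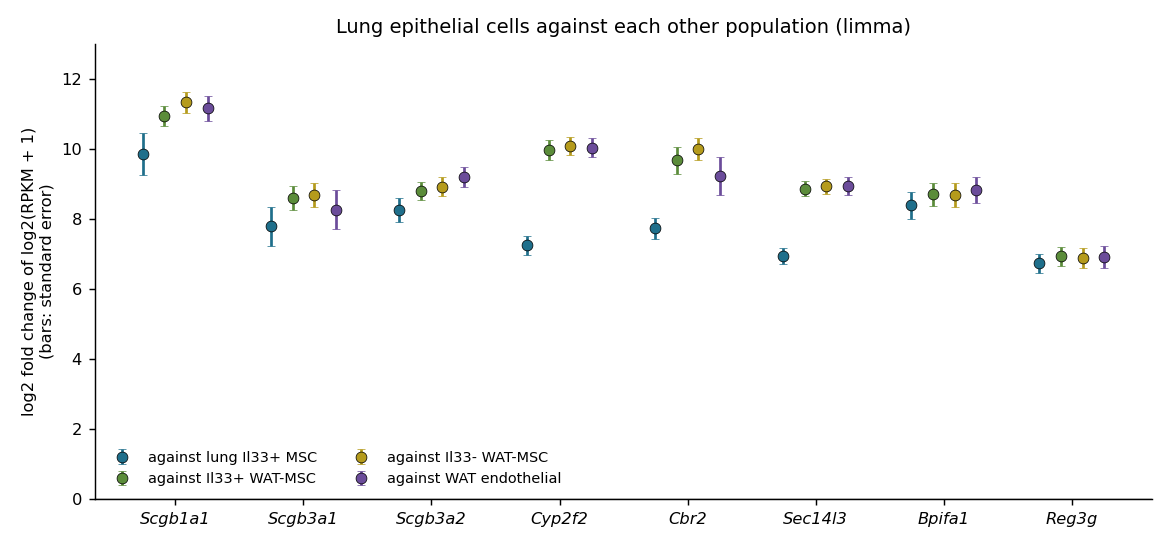
Log2 fold change of log2(RPKM + 1) in lung epithelial cells over each other population, as fitted by limma, with bars of 1 standard error and 3 libraries per population. Cyp2f2, Cbr2 and Sec14l3 are lower against lung Il33+ MSC (7.24, 7.73 and 6.94) than against the 3 WAT populations (8.87 or more). The other genes are also lower against lung Il33+ MSC than against each WAT population.

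The wider set of club and airway secretory genes followed the same direction. Of 27 such genes that are not among the 8, 24 were listed (Muc5ac, Upk3a and Kcnj16 were not), and 23 of the 24 were higher in epithelial cells in each comparison. In the same order of comparisons, 14, 16, 16 and 15 of the 24 reached the filter through the epithelial libraries alone, so this count too is given without weight. Their median log2 fold changes were 4.36, 4.56, 4.63 and 4.62, below those of the 8 genes. The most abundant in epithelial cells were Aldh1a1, a retinaldehyde dehydrogenase, at 545 ± 161 RPKM, Cyp2s1 at 502 ± 114 RPKM and Hp, haptoglobin, at 146 ± 59.7 RPKM (SD, n = 3 each). They were followed by Bpifb1 at 111 ± 89.6 RPKM, Gabrp at 92.1 ± 13.7 RPKM and Chad at 91.2 ± 57.1 RPKM (SD, n = 3 each). The exception, named after its values were seen, was Fmo2, a flavin monooxygenase, whose mean was 52.7 ± 9.73 RPKM in the epithelial libraries and 212 ± 20.2 RPKM in those of Il33+ WAT-MSC (SD, n = 3 each). Fmo2 was lower in epithelial cells against Il33+ WAT-MSC (log2 -2.0, limma adjusted p = 6.44e-05) and did not pass the test against Il33- WAT-MSC (log2 0.17, limma adjusted p = 0.645).

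Markers of other lung epithelial cells were present in the same libraries. Of 12 alveolar type 2 genes, 12 were higher in epithelial cells against lung MSC and against Il33+ WAT-MSC, and 11 against Il33- WAT-MSC and against endothelial cells. Of 9 ciliated genes, 9 were higher against each MSC population and 8 against endothelial cells. Over all genes tested, 12.8 to 18.6% were higher. Those that did not pass, named after their values were seen, were Etv5 against Il33- WAT-MSC (limma adjusted p = 0.113), and Abca3 (limma adjusted p = 0.0672) and Tppp3 (limma adjusted p = 0.0502) against endothelial cells. Against Il33+ WAT-MSC, Il33- WAT-MSC and endothelial cells, 8, 9 and 8 of the alveolar type 2 genes reached the filter through the epithelial libraries alone. Of the ciliated genes, 7, 6 and 7 did so. Against lung MSC, 0 of the alveolar type 2 genes and 5 of the ciliated genes did so. Such genes had to differ, so the counts of both lists are given without weight. Against Il33+ WAT-MSC the median log2 fold changes of the 2 lists were 6.91 and 4.43. The alveolar type 2 genes summed to 2276 to 4693 RPKM in the epithelial libraries, whereas the other 7 club cell secretory genes, without Scgb1a1, summed to 5971 to 9120 RPKM. Of 4 basal cell markers 1 was listed, Ngfr, which was lower in epithelial cells than in Il33+ WAT-MSC, and of 4 goblet cell markers 1 was listed, Agr2, at 1.45 to 3.85 RPKM in epithelial cells. None of 4 neuroendocrine markers was listed.

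Outside the epithelium, Scgb1a1 was present in every library. In the order of replicates 1, 2 and 3 it was at 72.88, 200.33 and 492.88 RPKM in lung Il33+ MSC. Il33+ WAT-MSC held 71.23, 78.32 and 134.15 RPKM of it and Il33- WAT-MSC 56.07, 62.63 and 96.22 RPKM. WAT endothelial cells were at 75.39, 61.38 and 104.50 RPKM. The lung MSC mean was highest (255 ± 215 RPKM, SD, n = 3), but its lowest library lay within the range of the WAT libraries, and no neighbouring pair among these 4 populations was separated. Relative to the epithelial mean, the 9 WAT libraries held 0.0307 to 0.0734% and the lung MSC libraries 0.0399 to 0.270%.

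The other secretory and defence genes were mostly near 0. Scgb3a2 was at 0.28, 1.74 and 1.92 RPKM in lung MSC and at 0.06 to 0.80 RPKM in the 9 WAT libraries. Scgb3a1 was at 0.30, 0.43 and 4.28 RPKM in lung MSC, and in WAT it stayed at 0.38 RPKM or less except in endothelial replicate 3, at 2.42 RPKM. Bpifa1 was at 0.11, 0.45 and 1.37 RPKM in lung MSC and at 0.03 to 0.46 RPKM in WAT. Reg3g was at 0, 0.16 and 0.37 RPKM in lung MSC and was listed at 0 in 5 of the 9 WAT libraries, with a highest value of 0.11 RPKM. For each of these 4 genes the lung MSC had the second highest mean, and their range overlapped that of the next population.

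Cyp2f2 and Sec14l3 separated the lung MSC from WAT. Cyp2f2 was at 9.23, 10.53 and 16.97 RPKM in lung MSC (12.2 ± 4.14, SD, n = 3) and at 0.57 to 1.84 RPKM in the 9 WAT libraries. Sec14l3 was at 3.52, 3.25 and 5.74 RPKM in lung MSC (4.17 ± 1.37, SD, n = 3) and at 0.16 to 0.60 RPKM in WAT. For both genes every lung MSC library lay above every WAT library, as for 4.03% of all genes. Cbr2 was at 14.86, 8.62 and 19.13 RPKM in lung MSC (14.2 ± 5.29, SD, n = 3), and in WAT it ranged from 0.98 to 11.45 RPKM, overlapping the lung range. Within each WAT population Cbr2 was highest in replicate 2, with 6.60 RPKM for Il33+ WAT-MSC, 3.63 RPKM for Il33- WAT-MSC and 11.45 RPKM for the endothelium.

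**Figure D4:**
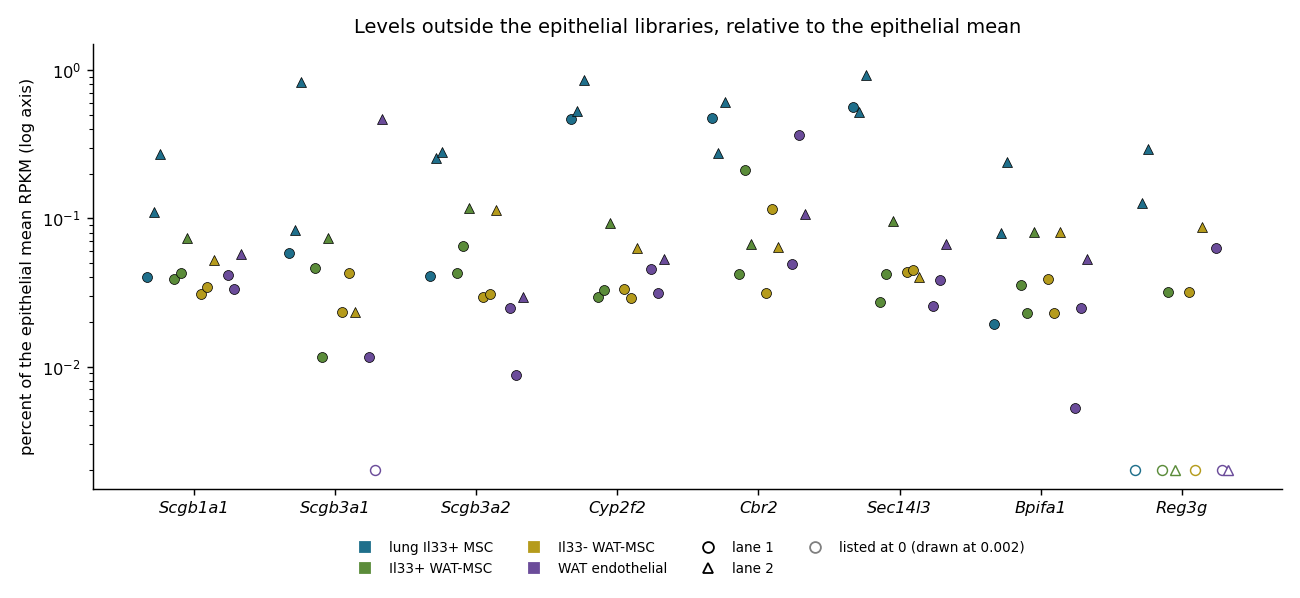
RPKM in each of the 12 libraries of the other 4 populations as a percent of the epithelial mean of the same gene, on a log axis, with circles for lane 1, triangles for lane 2 and open symbols for values listed at 0. The lung Il33+ MSC libraries lie apart from the WAT libraries for Cyp2f2 (0.466 to 0.857% against 0.0288 to 0.0929%) and Sec14l3 (0.522 to 0.922% against 0.0257 to 0.0964%).

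Between lung and WAT Il33+ MSC, 4 of the 8 genes passed the filter of 1 RPKM in at least 3 of the 6 libraries, and of all genes tested 3.50% were higher in lung MSC. Sec14l3 passed through the lung libraries alone and Cyp2f2 through these and 1 WAT library. The number of genes called and the call of Sec14l3 are therefore given without weight. Cyp2f2 was higher in lung MSC (log2 2.72, SE 0.34, limma adjusted p = 0.000980), as was Cbr2 (log2 1.94, SE 0.44, limma adjusted p = 0.0263). For Sec14l3 the log2 value was 1.93 (SE 0.31, limma adjusted p = 0.00464). Scgb1a1 did not pass (log2 1.08, SE 0.55, limma adjusted p = 0.354). With lane as a covariate the log2 values were 2.50 for Cyp2f2, 1.82 for Sec14l3, 2.04 for Cbr2 and 0.59 for Scgb1a1, and the calls were as before. Cbr2 kept its call in 9 of 16 alternatives, with limma adjusted p from 0.00244 to 0.110. It was 0.110 without lung MSC replicate 1 and 0.108 without lung MSC replicate 3. It was 0.0815 without Il33+ WAT-MSC replicate 1 and 0.0848 without Il33+ WAT-MSC replicate 3. Scgb1a1 passed only without lung MSC replicate 1 (log2 1.78, limma adjusted p = 0.0479, against 0.709 at most), and its log2 value was 0.41 without lung MSC replicate 3.

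Genes of other lung cells were also higher in the lung MSC libraries in the same comparison. Of 10 alveolar type 2 genes tested, 6 were higher in lung MSC, and 6 of the 10 reached the filter through the lung libraries alone. Among those higher were Sftpc (log2 4.90, limma adjusted p = 0.000147), Sftpb and Sftpa1, surfactant proteins. The 12 genes summed to 61.0 to 194 RPKM in lung MSC and 9.30 to 12.9 RPKM in the Il33+ MSC of WAT. Of 3 alveolar type 1 genes tested, Cldn18 (log2 1.37, limma adjusted p = 0.0254) and Emp2 (log2 1.25, limma adjusted p = 0.0109) were higher in lung MSC. Cldn18 reached the filter through the lung libraries alone. Of 4 endothelial genes tested, Pecam1 (log2 1.47, limma adjusted p = 0.0215) and Cdh5 (log2 1.56, limma adjusted p = 0.0180) were higher in lung MSC. Of 6 leukocyte and macrophage genes, 4 were higher in lung MSC, with 3 of the 6 passing the filter through the lung libraries alone, and their sum was 181 to 233 RPKM against 6.52 to 11.01 RPKM. Ptprc, Cd3e and Cd79a of the same list were not listed in the table. The 6 general epithelial markers summed to 1.5 to 2.87 RPKM in lung MSC and 1.32 to 8.52 RPKM in the Il33+ MSC of WAT. None reached the filter. By mean, Epcam (0.110 against 0.117 RPKM), Krt8 (0.307 against 2.15) and Krt18 (0.380 against 2.22) were lower in lung MSC. Cdh1 (0.763 against 0.0433 RPKM), Cldn3 (0.383 against 0.03) and Cldn7 (0.0533 against 0) were higher there. Of 7 other club and airway secretory genes tested, none was higher in lung MSC and Cyp2s1 was lower (log2 -1.66, limma adjusted p = 0.0144). The part of other lung cells in the difference of Cyp2f2, Sec14l3 and Cbr2 was not tested.

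Relative to Scgb1a1, Cyp2f2 and Sec14l3 were higher in the lung MSC libraries than in any epithelial or WAT library. For every 1000 RPKM of Scgb1a1, the epithelial libraries held 9.62 to 11.9 RPKM of Cyp2f2, the WAT libraries 8.14 to 13.7 and the lung MSC libraries 34.4 to 127. For Sec14l3 the values were 2.93 to 3.81 in epithelial cells, 2.12 to 4.82 in WAT and 11.6 to 48.3 in lung MSC. For each of the 7 genes the epithelial range lay inside that of the WAT libraries. The WAT values ran from 0.40 to 4.78 for Bpifa1, from 0 to 1.14 for Reg3g and from 0.98 to 8.0 for Scgb3a2. They reached further above the epithelial range for Cbr2, at 15.7 to 187 against 15.7 to 19.9 in epithelial cells, and for Scgb3a1, at 0 to 23.2 against 2.06 to 4.05. In the lung MSC libraries Cbr2 was at 38.8 to 204, above the epithelial range and overlapping that of WAT. These proportions are given without a test, and the low values behind them have 2 decimals.

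**Figure D5:**
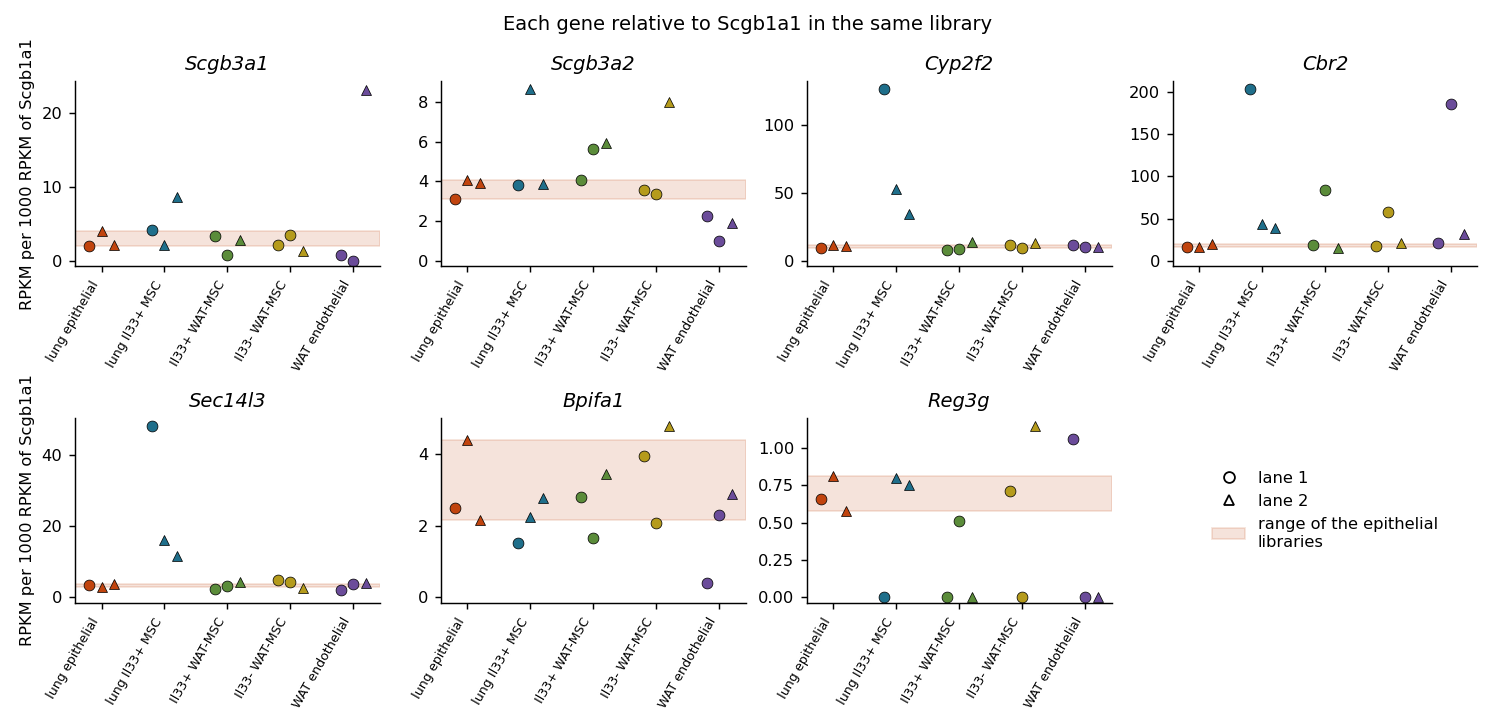
RPKM of each of the other 7 genes per 1000 RPKM of Scgb1a1 in the same library, on linear axes, with the range of the 3 epithelial libraries shaded. Cyp2f2 and Sec14l3 in the 9 WAT libraries lie at or near the shaded range, and the 3 lung Il33+ MSC libraries lie above it (34.4 to 127 for Cyp2f2 and 11.6 to 48.3 for Sec14l3).

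Read against sequencing lane, Scgb1a1 outside the epithelium was higher in lane 2. In each of the 4 populations every lane 2 library lay above every lane 1 library, as for 5.18% of all genes. In lane 1 the 6 WAT libraries were at 56.07 to 78.32 RPKM and the lung MSC library at 72.88 RPKM, whereas in lane 2 the 3 WAT libraries were at 96.22 to 134.15 RPKM and the lung MSC libraries at 200.33 and 492.88 RPKM. Averaged over populations, the lane 2 value was higher by 1.06 on the log2 scale, or 2.08-fold (exact permutation test of lane within population, two-sided, p = 0.0123, the smallest that the 81 arrangements allow). Within the 3 WAT populations the difference was 0.71, or 1.64-fold (exact permutation test, two-sided, p = 0.0370, the smallest that 27 arrangements allow). Under median-ratio scaling it was 0.79 (exact permutation test, two-sided, p = 0.0617).

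The lane difference was not particular to Scgb1a1. In a limma fit with population and lane over the 12 libraries, 0 of 9244 genes were called (percent called 0), and 792 genes, 8.57%, had an unadjusted p under 0.05, of which 759 were higher in lane 2. The median log2 difference over all genes was 0.20, and about 0 after median-ratio scaling, which shifts that median by -0.21. Scgb1a1, at 1.06 (limma adjusted p = 0.513), stood well above the median, and 1.15% of genes had a larger value. Cyp2f2 was at 0.50 (limma adjusted p = 0.587), Sec14l3 at 0.21 (limma adjusted p = 0.788) and Cbr2 at -0.25 (limma adjusted p = 0.880), and the other 4 genes did not reach the filter.

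By library, Scgb3a2, Cyp2f2 and Bpifa1 were, like Scgb1a1, higher in lane 2 without overlap in all 4 populations, as were 5.18% of all genes. Scgb3a1 was higher in 3 populations (22.5% of all genes in 3 or more), and Sec14l3 and Reg3g in 2 (55.5% of all genes in 2 or more). Sec14l3 was higher in lane 1 without overlap in Il33- WAT-MSC. Cbr2 overlapped between lanes in all 4. In the WAT populations lane, the code that opens the library name and replicate 3 cannot be told apart.

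Lane 2 also held more Scgb1a1 from epithelial cells. From RPKM, transcript length and alignments, lane 1 held about 3265400 epithelial reads of Scgb1a1, from 1 library, and lane 2 about 9820990, from 2 libraries. A WAT library held about 1410 to 2032 such reads in lane 1 and 2456 to 3023 in lane 2. As a share of the epithelial reads of the same lane, this was 0.0432 to 0.0622% in lane 1 and 0.0250 to 0.0308% in lane 2, so the WAT reads were higher in lane 2 by a smaller factor than the epithelial reads. For lung MSC the share was 0.0563% in lane 1 and 0.0509 and 0.132% in lane 2.

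The library names in the labels also hold a code ending in BC and a number, which was read here as an index label. What it stands for is not stated. Each epithelial library carried the same index label as a WAT endothelial library of the other lane, and no MSC library shared one with an epithelial library. Scgb1a1 in those endothelial libraries was at 61.38 and 75.39 RPKM in lane 1 and 104.50 RPKM in lane 2, inside the range of the WAT-MSC libraries of the same lane (56.07 to 78.32 and 96.22 to 134.15 RPKM). Among the 5 alveolar type 2 genes highest in epithelial cells, the means of the 3 WAT populations were 0.0360 to 0.0552% of the epithelial mean for Sftpc, 0.0366 to 0.0907% for Sftpa1, 0.0559 to 0.0688% for Sftpb, 0.0585 to 0.133% for Cxcl15 and 0.367 to 0.966% for Lyz1, the last above any Scgb1a1 value in these libraries. Of the other genes of that list, Slc34a2, Chil1 and Sftpd were at 0.0319 to 0.222%. Lamp3 and Napsa were at 0.356 to 1.65%, and Abca3 and Etv5 at 9.37 to 55.8%. The shares thus differed widely between the genes of the list. Whether the levels of Scgb1a1 and of these genes in WAT arose in the cells, the sort or the sequencing was not tested.

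The genes with the pattern most like Scgb1a1 over the 15 libraries were other epithelial genes. By Pearson correlation of log2(RPKM + 1), the closest outside the 8 were Wfdc2 (0.997), a secreted protease inhibitor of airway epithelium, Sntn (0.995), a cilium gene, Aldh3a1 (0.994), Tmem212 (0.994) and Mal2 (0.994). Of the 8 genes, Scgb3a2 was closest (0.996, rank 2 of all genes), and Cyp2f2 (0.983, rank 161) and Cbr2 (0.973, rank 281) were furthest. The libraries fall into an epithelial set of 3 and the other 12, which sets most of these correlations, and they are given as a description.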

How the data were processed

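The authors sorted cells, amplified RNA (Ovation RNA-seq System V2), sequenced it, used TopHat2 (Partek Flow) for alignment and deposited a table of RPKM for 12698 transcripts. The submitters' processing notes name mm10, and the paper's methods name Partek Genomics Suite 6.16. A few abundant transcripts lower all other RPKM values of a library. Only 41 transcripts stayed below 1 RPKM in every library, so the list had been filtered, in a way not given in the sources used here. The deposited table has RPKM with 2 decimals and no read counts. Approximate reads were computed as RPKM times GENCODE transcript length times alignments, without a counting interval.

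RPKM was summed per gene symbol, since the table was per transcript. Populations were compared with limma 3.58.1 in R 4.3.3 (lmFit, eBayes with trend) on log2(RPKM + 1), keeping genes that reached 1 RPKM in 3 or more libraries of the fit. The Benjamini-Hochberg adjustment ran over all genes kept, and 0.05 was the threshold. The fit was also run on simulated data with 200 changed genes, with normal errors around its own fitted values. Such data cannot show how the fit behaves on values near 0 RPKM, so no weight is placed on that run. For 3 against 3 libraries, the smallest exact permutation p is 0.1, so none was computed for single comparisons of populations. Other calculations used Python 3.11.15 with pandas 2.3.3 and scipy 1.17.1. Motifs were searched in RefSeq promoters. The TATA box was added after a first scan, and the comparison of index labels after the lane values were seen.

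The 8 genes, the marker lists and the tests were chosen with earlier results of these data known. Genes named outside the 8 are, from the airway secretory list, the 6 highest in epithelial cells, the 5 closest to Scgb1a1 by correlation, and at most 3 of each marker list in the order written. Fmo2, Abca3, Etv5, Cxcl15, Lyz1, Slc34a2, Chil1, Sftpd, Lamp3, Napsa, Cldn18, Emp2, Ngfr, Krt18, Cldn3, Cldn7 and Chil3 were named after their values were seen. Alternatives were a replicate block, lane as a covariate, all libraries in 1 fit, median-ratio scaling, scaling without the 8 genes, a pseudocount of 0.1, quantile normalization, a filter at 5 RPKM or none, the most abundant transcript, and leaving out each library.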

Additional observations from a re-analysis of the deposited data

How the results depend on the processing

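All 8 genes were called higher in epithelial cells in each of the 4 comparisons under all alternatives. In the main fits 12.8 to 18.6% of all genes tested were called higher. Some of the 8 reached the filter through the epithelial libraries alone and had to differ, so the count is given without weight. The numbers of all genes called depended on the processing. Scaled to the summed RPKM without the 8 genes, 3242 genes were higher and 1445 lower against lung MSC, 2672 and 1410 against Il33+ WAT-MSC, and 2685 higher against Il33- WAT-MSC. With a filter at 5 RPKM, which tests fewer genes, 1069, 993, 1040 and 778 were higher against lung MSC, Il33+ WAT-MSC, Il33- WAT-MSC and endothelial cells. The share of calls that were higher in epithelial cells was 43.1, 44.0, 44.2 and 46.2% in the same order, 51.4, 55.3, 55.5 and 56.8% under median-ratio scaling and 69.2, 65.5, 63.8 and 58.9% when scaled without the 8 genes. Between lung and WAT Il33+ MSC, a fit of all 15 libraries called 197 genes higher and 139 lower, and leaving out 1 library gave 145 to 301 higher and 116 to 201 lower, the fewest without lung MSC replicate 2.

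The lane difference of Scgb1a1 was 0.79 under median-ratio scaling (exact permutation p = 0.0617) and 0.71 to 1.22 with 1 library left out. The deviations of libraries with the same number correlated at -0.09 to 0.14, and those with different numbers at -0.14 to 0.12. For epithelial cells and lung MSC the same-number values (0.05 to 0.14) lay above the others (-0.07 to 0.002). They also did for epithelial and endothelial cells (0.08 to 0.14 against -0.12 to 0.03). In the other comparisons the ranges overlapped. Whether equal numbers mark shared mice cannot be told from such low values. With the replicate block, Cbr2 between lung and WAT MSC had a limma adjusted p of 0.0564 and 271 genes were higher. Cyp2f2 and Sec14l3 remained called, the latter without weight, since it passed the filter through the lung libraries alone. Depth limits the genes near 0, where 2 decimals and the added 1 set the values.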
